A study of Mus musculus with 6 samples.

Results

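The genes of fatty acid oxidation, ketogenesis and the peroxisome form a set of 39 listed genes, of which 38 were measured among 18193 genes. They were found by gene symbol in the deposited table. Each was read from the probe set (a group of short probes for 1 transcript) that carried exactly 1 symbol and had the highest mean over the 6 arrays. Acsl1 was not analysed here. Of the measured genes, 20 encode mitochondrial proteins, 13 encode peroxisomal proteins, and 5 encode cytosolic or membrane enzymes, transcriptional regulators or a secreted protein. The values come from distal jejunum of 3 control and 3 mutant littermates killed at 7 months of age, with 1 Affymetrix array per animal. All carry the strain name B6.129X1(FVB)-Hnf4atm1.1Gonz/J, which is that of the floxed Hnf4a allele. In the mutants Hnf4a was deleted in the intestinal epithelium by Cre under the 12.4-kb Villin promoter. The sources used here do not give whether the controls carried Cre. Ketamine and xylazine (300 mg/kg and 40 mg/kg) were injected before death in both groups. The RNA came from biopsies of the whole jejunum, so stroma, muscle and immune cells were measured with the epithelium in which Cre acts.

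Fatty acids are broken down from the carboxyl end, a pair of carbons at a time, by beta-oxidation. Mitochondria oxidise short, medium and long chains, of which the long ones enter as carnitine esters. Peroxisomes shorten very long chains, branched chains and the side chain of bile acid precursors, and pass the products on to mitochondria. The nuclear receptor PPARalpha, encoded by Ppara, drives many of these genes in fasting and after a fatty meal. Enterocytes handle dietary fat and carry both routes. HNF4A, the nuclear receptor deleted here, binds direct repeats of the same kind as PPARalpha, and is named in the series title for its relation to reactive oxygen species, which peroxisomal oxidases produce.

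Hnf4a itself had log2 signals of 11.82, 11.76 and 11.57 in controls and 8.83, 8.83 and 9.82 in mutants. It fell by 2.56 ± 0.25 SE on the log2 scale (limma, adjusted p = 0.00756), a call lost without control 2 (adjusted p = 0.0506). Array medians ran from 3.93 to 3.98 and rank correlations between arrays from 0.980 to 0.987. Control 1 and mutant 3 carried transcripts of the Y chromosome. Epithelial markers were bright on every array, with a mean log2 signal over 9 of 10 listed enterocyte genes of 12.71 to 12.80 in controls and 12.35 to 12.58 in mutants. Over 5 of 7 pancreatic acinar genes the mean was 8.05 in control 3 and 3.95 to 4.17 elsewhere. Over 6 of 8 fat cell genes it was 8.20 in mutant 2 and 6.58 to 6.96 elsewhere, and the 3 brown fat genes were also highest there, with a mean of 3.72 beside 3.12 to 3.40. Of these 3, Cidea was at 5.56 in mutant 2 and at 3.74 to 4.33 elsewhere, and Ucp1 and Elovl3 lay under the median probe set of every array.

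Of the 13 peroxisomal genes of this set, 12 had a lower mean in the mutants, and the mitochondrial ones lay closer to the controls. Among genes known as PPAR targets, Angptl4 and Acot1 lay higher, Ehhadh and Acaa1b lower, and Pex11a near its control level. None of these single differences passed the test over all genes. A further list of 17 peroxisomal enzymes, given below, had a median difference of -0.09 on the log2 scale. In limma's moderated test with Benjamini-Hochberg adjustment, 0 of 38 genes had an adjusted p under 0.05, against 0.528% of all genes. At an unadjusted p under 0.05 there were 14 of 38, 12 of them lower and 2 higher, where all genes gave 12.1% (6.85% lower and 5.24% higher). All 38 genes were brighter than the median gene, and among all genes brighter than it the share was 17.4%. The median log2 signal was 9.17 over the 38 genes and 7.43 over those brighter genes, so the brighter genes are not matched in signal to this set. Adjusted p ran from 0.0865 to 0.959. In all, 32 of 38 genes had a mutant mean below the control mean, a direction taken by 53.3% of all genes and by 54.8% of the brighter ones. The median difference over the 38 genes was -0.19 on the log2 scale, beside -0.01 over all genes, and -0.12 without mutant 3. On simulated arrays of this design with 18193 genes, 17.3% of genes changed by 0.5 on the log2 scale were recovered and 74.3% of those changed by 1. In these simulations 200 genes were changed and noise was drawn independently for each gene. The shares depend on those settings, so they do not give the rate of recovery for these 38 genes.

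By compartment, 9 of 13 peroxisomal genes reached p under 0.05 without adjustment (limma), all lower, against 3 of 20 mitochondrial genes, also all lower. Over all genes 6.85% lay lower at that level, and 10.2% of those brighter than the median gene. The mitochondrial share of 15% was nearer to these than the peroxisomal share of 69.2%. Below the control mean lay 12 of 13 peroxisomal and 17 of 20 mitochondrial genes, beside 54.8% of the brighter genes. The median difference was -0.45 for the peroxisomal and -0.18 for the mitochondrial genes, on the log2 scale. The mutants lay wholly below the controls in 8 of 13 peroxisomal and 7 of 20 mitochondrial genes, in 10.2% of all genes and in 13.6% of the brighter ones. Of the 38 genes, 15 had all mutants below all controls and 2, Angptl4 and Acot1, had all above, where 6.93% of all genes had all above. Groups without overlap made up 17.1% of all genes and 22.1% of the brighter ones. The difference between the compartments was not tested. Without mutant 3 the mitochondrial median was -0.07, and the peroxisomal one was -0.35. When all probe sets of a gene were averaged, the peroxisomal median was -0.27. Fewer cells of a type and less RNA per cell cannot be told apart in these whole-tissue samples.

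**Figure D1:**
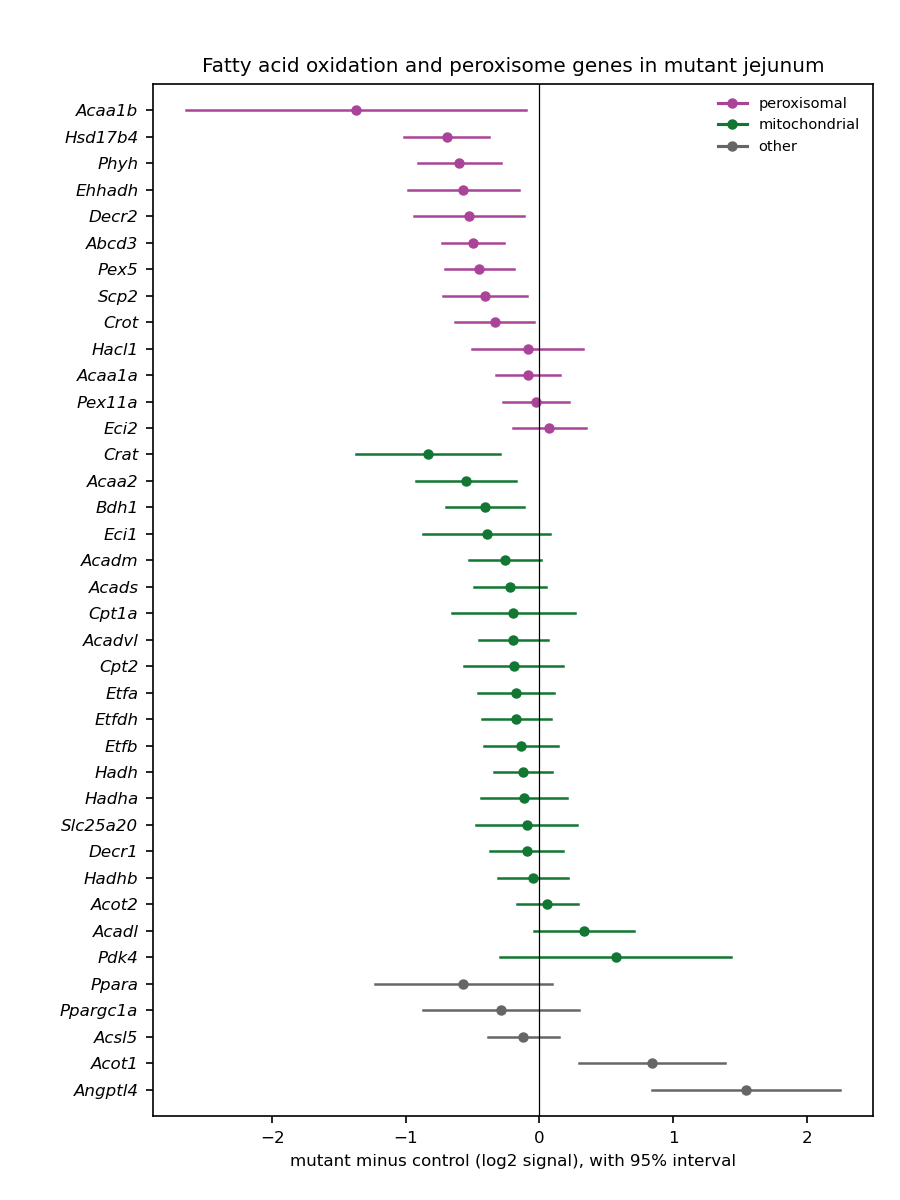
Difference between mutant and control in log2 signal for the 38 genes (points, 3 animals per group) with 95% intervals from limma (bars), coloured by compartment, other marking cytosolic enzymes, regulators and a secreted protein. Among the 13 peroxisomal genes 12 points lie left of 0, and Angptl4 and Acot1 lie farthest right.

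Among the peroxisomal enzymes, Hsd17b4 had the smallest p. It encodes the bifunctional protein that carries out the middle steps of beta-oxidation on branched and very long chains and on bile acid precursors. Its log2 signal was 9.98, 10.08 and 10.20 in controls and 9.51, 9.55 and 9.12 in mutants. The groups did not overlap, and mutant 3 was the lowest. The difference was -0.69 ± 0.14 SE, or 1.62-fold, and missed the threshold (limma, adjusted p = 0.0897). A further probe set of the gene differed by -0.39. Ehhadh encodes the other bifunctional enzyme, a classical PPARalpha target that acts on straight chains and on dicarboxylic acids. It read 7.90, 7.99 and 8.08 in controls and 7.61, 7.66 and 6.99 in mutants, again without overlap. Its difference was -0.57 ± 0.18 SE (limma, adjusted p = 0.262) and -0.35 without mutant 3.

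The closing thiolase step has several enzymes in mice. Scp2 gives rise to a thiolase for branched chains and to a sterol carrier protein. Its log2 signals were 12.13, 12.27 and 12.33 in controls and 11.69, 12.10 and 11.72 in mutants, a difference of -0.41 ± 0.14 SE (limma, adjusted p = 0.277). Of its 3 further probe sets, 2 also lay lower and 1 lay 0.18 higher. Acaa1b, a straight-chain thiolase known as a PPARalpha target in liver, read 5.56, 6.65 and 7.60 in controls and 5.11, 6.15 and 4.42 in mutants. The ranges overlapped, and the spread within each group was the widest of the peroxisomal genes, with SD of 1.02 and 0.87 (n = 3 each). The difference of -1.37 ± 0.55 SE was also the largest in size of the peroxisomal genes (limma, adjusted p = 0.367), and it was -0.88 without control 3. In both groups the animal with Y-linked transcripts had the lowest Acaa1b value. The close paralog Acaa1a read 7.36, 7.35 and 7.49 in controls and 7.20, 7.40 and 7.34 in mutants, a difference of -0.08 with a 95% interval from -0.32 to 0.15. Its probe set has the suffix _x_at, which Affymetrix gives to probe sets whose probes can match other transcripts, so its signal may hold that of Acaa1b in part.

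Export and import of acyl groups lay lower in both genes measured. Abcd3 encodes PMP70, an ATP-driven transporter that brings long and branched acyl-CoAs into the peroxisome. Its log2 signal was 11.30, 11.18 and 11.33 in controls and 10.80, 10.83 and 10.69 in mutants. The mutants clustered tightly, with an SD of 0.07, and lay wholly below the controls. The difference was -0.50 ± 0.10 SE, or 1.41-fold (limma, adjusted p = 0.0897). A further probe set at a mean of 2.79 lay under the median of every array, and the mean of both probe sets differed by -0.22. Crot encodes the octanoyltransferase that makes carnitine esters for export from the peroxisome. It read 8.97, 9.16 and 9.12 in controls and 8.73, 8.96 and 8.56 in mutants, a difference of -0.34 ± 0.13 SE (limma, adjusted p = 0.34). The mean of its 2 probe sets differed by -0.15, the dimmer of them lying at a mean of 4.45.

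Alpha-oxidation, which removes a single carbon from methyl-branched chains such as phytanic acid from the diet, was read from 2 genes. Neither passed the test over all genes. Phyh, the phytanoyl-CoA hydroxylase of the opening step, read 10.28, 10.34 and 10.51 in controls and 9.89, 9.91 and 9.52 in mutants. All mutants lay below all controls, by -0.60 ± 0.14 SE on average (limma, adjusted p = 0.127). Hacl1, the lyase of the next cleavage, differed by -0.09, with a 95% interval from -0.50 to 0.33 and overlapping groups. It was dimmer, at a mean of 5.67 beside 10.08 for Phyh, and the difference between these genes was not tested. The peroxisomal dienoyl-CoA reductase gene Decr2, needed for unsaturated chains, read 6.33, 6.33 and 6.45 in controls and 5.66, 6.27 and 5.59 in mutants, a difference of -0.53 ± 0.18 SE (limma, adjusted p = 0.282). Eci2, an isomerase for unsaturated chains found in peroxisomes and mitochondria, differed by 0.07 and was the single peroxisomal gene above its control mean. Without control 3 its difference was -0.01.

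Of the biogenesis genes, Pex5 encodes the receptor that carries matrix enzymes to the peroxisome. It read 6.34, 6.40 and 6.40 in controls, an SD of 0.03, and 5.79, 6.11 and 5.90 in mutants. The difference was -0.45 ± 0.11 SE (limma, adjusted p = 0.156), and its other probe set differed by -0.43. Pex11a, which promotes peroxisome division and is a PPARalpha target, read 8.40, 8.26 and 8.40 in controls and 8.19, 8.39 and 8.40 in mutants. Its groups overlapped, and its difference of -0.02 had a 95% interval from -0.27 to 0.22. That of Pex5 ran from -0.71 to -0.19, and the difference between these genes was not tested.

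Promoter windows of 300 bases, 250 before and 50 after a gene's start, were available for 33 of the 38 genes in RefSeq's GRCm38.p6 annotation, 37 windows in all. Acaa2, Angptl4, Crat, Decr1 and Hsd17b4 had none in the table. They were searched on both strands for CAAAGTCCA, a sequence known to favour HNF4 over other receptors, for AGGTCA, the repeat unit of this receptor class, and for AGGTCANAGGTCA with up to 2 mismatches, the direct repeat bound by HNF4 and PPAR. The unit AGGTCA is contained in an exact copy of the direct repeat, so those matches can overlap. The exact CAAAGTCCA was found in 1 of the 37 windows, that of Abcd3, and in 0.475% of all 32851 windows. It lay 14 to 22 bases after the start. The direct repeat was found in the windows of Etfa and Slc25a20, beside 3.86% of all windows. The single AGGTCA was found in those of Acadm, Acadvl, Cpt1a, Phyh and Scp2, 5 of 37, beside 16.3% of all. A match of letters is not a measured site, and a window without one says nothing of sites elsewhere. The windows of Abcd3 and Phyh are shown because these genes are among the peroxisomal genes with the smallest p and hold a match, and those of Acaa1a and Acaa1b because they are the straight-chain thiolase paralogs and hold none of the motifs. Each runs 5′ to 3′ on the gene's strand, with matches in capitals. They lie at chr3:121815253-121815552 (minus strand), chr2:4918746-4919045 (plus strand), chr9:119341044-119341343 (plus strand) and chr9:119157044-119157343 (minus strand).
Abcd3: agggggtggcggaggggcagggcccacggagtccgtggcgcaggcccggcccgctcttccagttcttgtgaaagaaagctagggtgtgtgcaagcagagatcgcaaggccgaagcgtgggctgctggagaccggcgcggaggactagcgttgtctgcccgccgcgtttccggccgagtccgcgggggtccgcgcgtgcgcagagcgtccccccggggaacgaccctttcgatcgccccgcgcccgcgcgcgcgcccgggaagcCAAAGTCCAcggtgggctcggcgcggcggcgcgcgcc
Phyh: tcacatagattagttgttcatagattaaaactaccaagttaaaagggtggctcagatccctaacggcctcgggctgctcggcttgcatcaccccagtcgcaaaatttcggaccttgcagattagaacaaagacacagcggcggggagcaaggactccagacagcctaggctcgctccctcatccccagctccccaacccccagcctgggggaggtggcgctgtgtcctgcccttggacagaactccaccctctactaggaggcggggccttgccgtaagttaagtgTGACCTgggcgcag
Acaa1a: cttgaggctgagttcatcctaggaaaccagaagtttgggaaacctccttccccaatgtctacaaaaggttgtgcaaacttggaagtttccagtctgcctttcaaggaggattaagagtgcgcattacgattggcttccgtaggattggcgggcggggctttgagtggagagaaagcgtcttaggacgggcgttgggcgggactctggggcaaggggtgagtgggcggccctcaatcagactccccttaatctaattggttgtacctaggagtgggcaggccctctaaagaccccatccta
Acaa1b: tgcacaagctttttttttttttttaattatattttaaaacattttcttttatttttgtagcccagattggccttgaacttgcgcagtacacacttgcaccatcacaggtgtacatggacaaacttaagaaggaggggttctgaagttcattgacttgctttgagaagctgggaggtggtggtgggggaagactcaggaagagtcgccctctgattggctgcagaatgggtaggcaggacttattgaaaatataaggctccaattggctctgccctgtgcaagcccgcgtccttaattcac
In a global alignment the windows of the thiolase paralogs were identical at 51.8% of aligned columns. Pairs of unrelated windows among these 4 gave 42.6% to 49.1%.

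Of the 4 carnitine genes placed with the mitochondria, Crat alone had an unadjusted p under 0.05 (limma), and the 3 that carry long chains in did not. Cpt1a encodes the outer-membrane palmitoyltransferase that controls entry. It read 9.40, 9.32 and 9.02 in controls and 9.11, 9.41 and 8.63 in mutants, with overlapping groups and a difference of -0.20 whose 95% interval ran from -0.66 to 0.26. Its 2 further probe sets lay higher in the mutants, by 0.24 and 0.44, so the brightest probe set does not settle its direction. The carrier gene Slc25a20 and the inner-membrane transferase gene Cpt2 differed by -0.10 and -0.19, also with overlap. For Cpt2 the difference was -0.31 without mutant 1, -0.11 without control 1 and -0.02 without mutant 3. Crat, the carnitine acetyltransferase of mitochondria and peroxisomes, read 7.77, 7.67 and 7.85 in controls and 7.19, 7.28 and 6.33 in mutants. The groups were apart, and the difference was -0.83 ± 0.23 SE (limma, adjusted p = 0.205), or -0.53 without mutant 3. Its 2 further probe sets differed by -0.34 and -0.45.

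The acyl-CoA dehydrogenases, which open each turn of beta-oxidation and differ by chain length, gave small differences of both signs. Acadm, for medium chains, read 9.77, 9.92 and 9.81 in controls and 9.42, 9.76 and 9.55 in mutants. The highest mutant lay just under the lowest control, and the difference was -0.26 ± 0.12 SE (limma, adjusted p = 0.439). Acadvl and Acads, for very long and short chains, differed by -0.20 and -0.22, the latter -0.12 without mutant 3. Acadl, for long and branched chains, differed the other way by 0.33 ± 0.16 SE (limma, adjusted p = 0.48), with 10.16 in mutant 3 and 9.38 to 9.82 on the other arrays. Without that array its difference was 0.17.

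The trifunctional protein completes the cycle on long chains at the inner membrane. Hadha, its alpha subunit, read 9.81, 9.51 and 9.56 in controls and 9.62, 9.63 and 9.27 in mutants. The groups overlapped, with a difference of -0.12 and a 95% interval from -0.44 to 0.20. Hadhb, its beta subunit, differed by -0.05, with a 95% interval from -0.31 to 0.21, and by 0.02 under quantile normalisation. Its 2 further probe sets lay higher in the mutants, by 0.36 (at a mean of 9.75) and 0.08, so its direction is not settled. The soluble dehydrogenase gene Hadh differed by -0.12 ± 0.09 SE in its brightest probe set, an _x_at set, and by -0.31 and -0.03 in the others. The thiolase gene Acaa2 had the largest difference of these genes. It read 9.21, 9.65 and 9.54 in controls and 9.04, 9.08 and 8.64 in mutants, a difference of -0.55 ± 0.16 SE (limma, adjusted p = 0.231). Its 2 further probe sets differed by -0.36 and -0.61.

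The mitochondrial enzymes for unsaturated chains and for electron transfer had no unadjusted p under 0.05. Decr1 differed by -0.10 and Eci1 by -0.39 ± 0.21 SE, the latter at 8.67 in mutant 3 and -0.17 without that array. Etfa, Etfb and Etfdh pass electrons from the dehydrogenases to ubiquinone, and differed by -0.18, -0.14 and -0.17. For Etfb it was -0.05 without mutant 3 and -0.09 without control 3, for Etfa -0.09 without mutant 1, and for Etfdh -0.10 without control 2 and -0.11 without mutant 3. The SE of these 3 lay between 0.11 and 0.12, so a shared shift of this size could not be told from 0 gene by gene. Bdh1, which interconverts acetoacetate and hydroxybutyrate, read 10.21, 10.00 and 10.28 in controls and 9.62, 9.94 and 9.69 in mutants. The groups did not overlap, and the difference was -0.41 ± 0.13 SE (limma, adjusted p = 0.249), with a further probe set at -0.71. The mitochondrial thioesterase gene Acot2 differed by 0.06, with a 95% interval from -0.17 to 0.29.

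**Figure D2:**
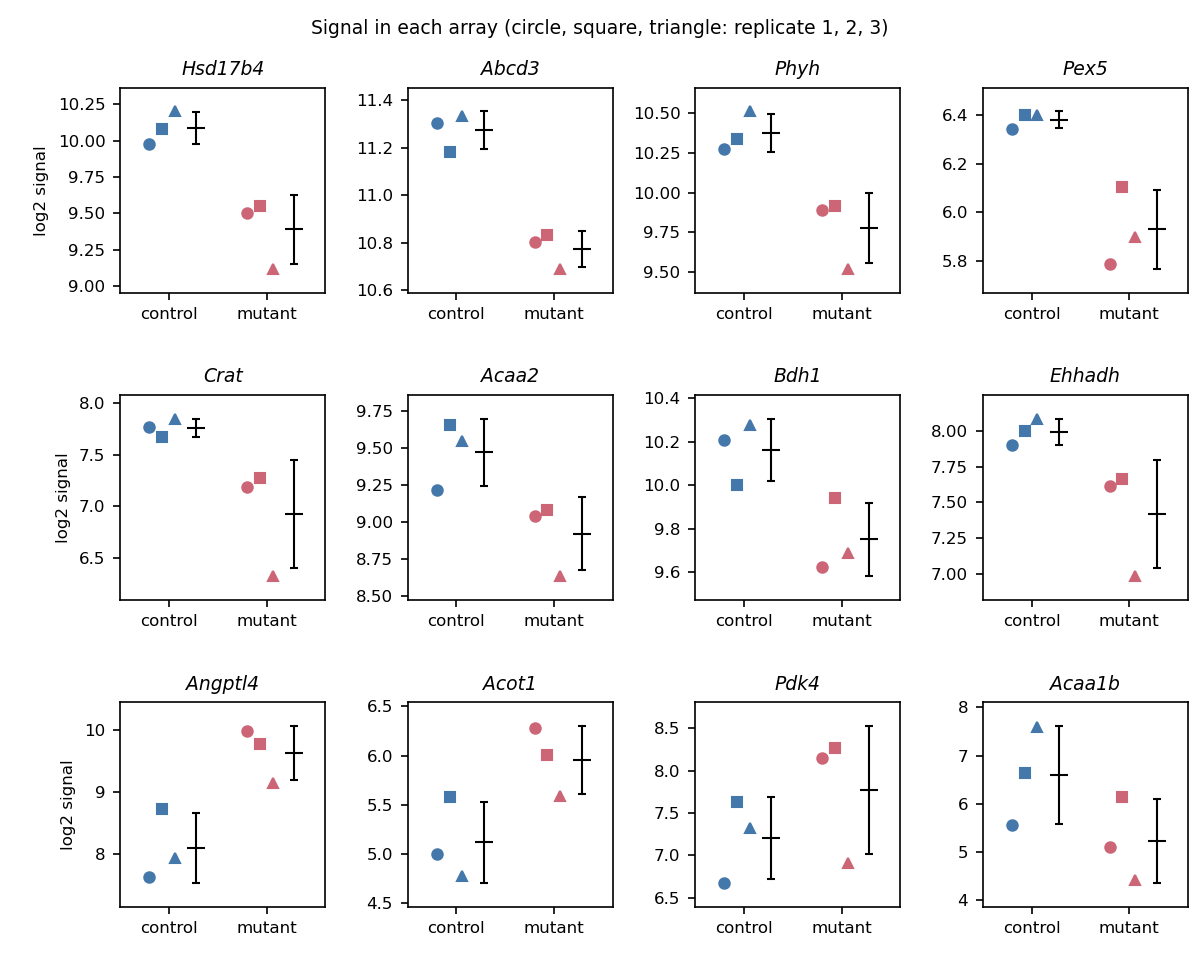
Log2 signal of 12 genes in each of 3 control and 3 mutant arrays, with the group mean and SD beside the points. Mutants lie wholly below controls in the 8 panels of the upper rows and wholly above in Angptl4 and Acot1, while Pdk4 and Acaa1b overlap, and each vertical axis has its own range.

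Genes known to respond to fasting and to PPARs lay on both sides of the control level. Angptl4 encodes a secreted inhibitor of lipoprotein lipase that is made in gut, liver and fat. It read 7.62, 8.72 and 7.93 in controls and 9.99, 9.77 and 9.15 in mutants, so that all mutants exceeded all controls. The difference of 1.55 ± 0.31 SE, or 2.92-fold, was the largest in size of the 38 genes and just missed the threshold (limma, adjusted p = 0.0865). Without mutant 2, the array with fat transcripts, the difference was 1.48. Without control 3 and mutant 2 together it was 1.40. The part of fat tissue in the Angptl4 signal was not tested. A second probe set, at a mean of 2.23 and under the median of every array, differed by 0.05. Acot1, the cytosolic acyl-CoA thioesterase, read 5.0002, 5.58 and 4.78 in controls and 6.28, 6.0048 and 5.59 in mutants, a difference of 0.84 ± 0.24 SE (limma, adjusted p = 0.207). Control 2 and mutant 3 were nearly level, at 5.58 and 5.59. Acot2, its mitochondrial paralog, differed by 0.06 as given above.

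Pdk4 encodes a kinase that holds back pyruvate oxidation when fat is burnt. It read 6.67, 7.63 and 7.32 in controls and 8.15, 8.27 and 6.91 in mutants. Mutants 1 and 2 exceeded all controls, while mutant 3 lay among them. The difference was 0.57 ± 0.38 SE (limma, adjusted p = 0.623), 0.30 without control 1, 0.32 without mutant 2 and 1.004 without mutant 3. Ppara read 7.89, 8.27 and 8.32 in controls and 7.95, 7.96 and 6.87 in mutants, overlapping at control 1. Its difference was -0.57 ± 0.29 SE (limma, adjusted p = 0.493) and -0.21 without mutant 3, and its 2 further probe sets differed by -0.56 and -0.57. The coactivator gene Ppargc1a, which drives mitochondrial biogenesis, differed by -0.29 ± 0.25 SE, with 4 further probe sets between -0.39 and -0.53. It was -0.55 without control 1, -0.07 without control 2 and -0.11 without mutant 3. Acsl5, an acyl-CoA synthetase abundant in enterocytes, differed by -0.12, with a 95% interval from -0.39 to 0.15.

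The arrays did not contribute equally. Mutant 3 had the lowest of the 6 values in 23 of 38 genes, whereas it was lowest in 21.8% of all genes. Mutant 2 was the highest of the 3 mutants in 29 of 38 genes, and in 34.9% of all genes. Control 3, the array with pancreatic transcripts, was the highest of the 6 in 8 of 13 peroxisomal genes and in 15 of 38 genes, and in 13.7% of all genes. Without it the peroxisomal median was -0.44. The median peroxisomal gene lay -0.47, -0.14 and -0.53 from its control mean in mutants 1, 2 and 3. The median mitochondrial gene lay -0.13, -0.01 and -0.31 from it. Mutant 3 was thus lowest for most of these genes, and mutant 1 was lowest of the 6 in 8 of 38. Mutant 3 was the highest of the 3 mutants for Acadl, Pex11a and Acsl5, and had the highest Hnf4a signal among the mutants. It also had the lowest Fabp1 signal, 11.31, where mutants 1 and 2 had 11.83 and 12.30 and controls 12.86 to 13.27. The mean of the 9 enterocyte markers, which include Fabp1, was 12.36, 12.58 and 12.35 in mutants 1, 2 and 3. Apob, at 10.62, 12.34 and 12.58, lowered the mean of mutant 1, so these means do not show equal marker levels in mutants 1 and 3. Lct and Anpep were lowest in mutant 3, at 11.48 and 11.57, whereas Apob and Cdh17 were highest there. The part of the enterocyte markers in the result was not tested.

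**Figure D3:**
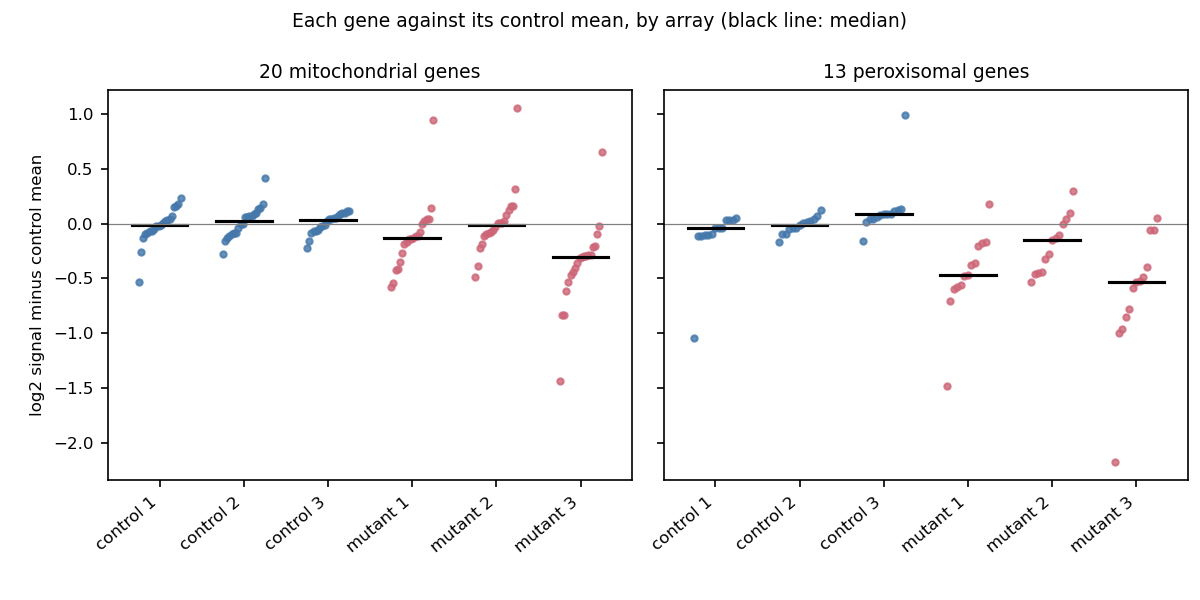
Log2 signal of each mitochondrial (20) and peroxisomal (13) gene minus its own control mean, per array, with the median as a black line. The peroxisomal medians lie at -0.47, -0.14 and -0.53 in mutants 1, 2 and 3, and the mitochondrial ones at -0.13, -0.01 and -0.31.

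Sex of the animals, read from the Y-linked transcripts, was balanced at 1 in 3 in each group. In the pair with Y-linked transcripts (mutant 3 minus control 1), 12 of 13 peroxisomal genes lay below 0, with a median of -0.44. In the other 4 animals 11 of 13 did, with a median of -0.41. For the mitochondrial genes the medians were -0.31, with 17 of 20 below 0, and -0.05, with 12 of 20. The former pair holds 1 animal per group, so its values have no replicate check. With the mean of the Y-linked genes as a covariate, Angptl4 (limma, adjusted p = 0.0222) and Hsd17b4 (adjusted p = 0.0372) passed the test, while the number of genes called over all genes went from 96 to 196. Acaa2 lay next, at an adjusted p of 0.0535. Without control 3 and mutant 2, the arrays with pancreatic and fat transcripts, the peroxisomal median was -0.50 and the mitochondrial one -0.23. Over 6 of 7 T cell genes the mean was 5.69 to 7.05 in controls and 6.72 to 7.53 in mutants. Over 5 macrophage genes it was 7.28 to 7.37 in controls and 7.26 to 7.73 in mutants. Of these 5, Csf1r and Adgre1 differed by 0.40 and 0.28 with all mutants higher, and Lyz2 by -0.35 with all mutants lower. None of the 9 marker lists, Y-linked genes included, had a member past the test in limma, and the part of these cells in the result was not tested.

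The rest of the pathway was read from a further list of 88 genes, of which 77 were measured. The others were not analysed here. Of the 77, 1 fell and 0 rose in limma's test, beside 0.528% of all genes called. At an unadjusted p under 0.05, 17 of 77 lay lower and 5 higher, beside 6.85% and 5.24% of all genes. The median difference was -0.14, and 55 of 77 lay below the control mean, as did 53.3% of all genes. The gene that fell was Abcd4, listed for its family, which is known to act with lysosomes in the handling of cobalamin. Its log2 signal was 6.49, 6.83 and 6.70 in controls and 5.54, 5.62 and 5.27 in mutants, a fall of 2.29-fold (log2 difference -1.20 ± 0.14 SE, adjusted p = 0.0135). The call was lost without control 2 (adjusted p = 0.0687) or control 3 (adjusted p = 0.0923) and when its 2 probe sets were averaged (-0.58, adjusted p = 0.0899).

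Other peroxisomal enzymes of that list lay on both sides. Amacr, the racemase that prepares branched chains for oxidation, read 6.81, 6.84 and 6.77 in controls and 5.995, 6.19 and 5.50 in mutants (difference -0.91 ± 0.17 SE; limma, adjusted p = 0.0762). Acox2, the oxidase for branched chains and bile acid precursors, differed by -0.77 ± 0.18 SE, and Cat, the catalase that removes hydrogen peroxide, by -0.73 ± 0.18 SE, both without overlap. Pipox, which oxidises pipecolic acid, lay higher, at 7.78, 8.32 and 7.92 in mutants and 7.06, 7.14 and 7.32 in controls (difference 0.83 ± 0.16 SE; limma, adjusted p = 0.0762). Of the 17 peroxisomal enzymes of the list, 4 lay lower and 2 higher at an unadjusted p under 0.05 (limma). All genes gave 6.85% and 5.24%. The median difference of the 17 was -0.09, and 12 lay below the control mean. This median is nearer to 0 than that of the 13 peroxisomal genes described first, and the 2 lists share no gene. The 17 were also dimmer, with a median log2 signal of 6.81 beside 8.31 for the 13. The part of brightness in this contrast was not tested. Among the 16 peroxisomal membrane and biogenesis genes the median was -0.25, with 14 below the control mean. Fabp1, the abundant fatty acid binding protein of enterocytes and liver, differed by -1.23 ± 0.24 SE (limma, adjusted p = 0.0798). The cytosolic thioesterase gene Acot7 differed by 0.71 ± 0.12 SE (limma, adjusted p = 0.0598), the same way as Acot1. The thioesterase gene Acot12 differed the other way, by -0.92 ± 0.28 SE with overlapping groups (limma, adjusted p = 0.238). The 7 thioesterase genes of the list had a median difference of -0.12, with 4 below the control mean and 3 above. At an unadjusted p under 0.05 (limma), 2 of the 7 lay lower and 1 higher, beside 6.85% and 5.24% of all genes. Acad10 of the dehydrogenase family differed by -0.47 ± 0.12 SE. The 13 PPAR regulators and targets of the list had a median difference of -0.11, with 9 below the control mean. At an unadjusted p under 0.05 (limma), 2 of the 13 lay lower and 0 higher, beside 6.85% and 5.24% of all genes. These 2 were Esrra and Rxra, which differed by -0.34 and -0.37 with all mutants lower (limma, adjusted p = 0.221 and 0.368). Also among the 13, the PPAR targets Plin2 and Cyp4a14 differed by -0.11 and 0.08, the latter at a mean of 2.49, under the median of every array.

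**Figure D4:**
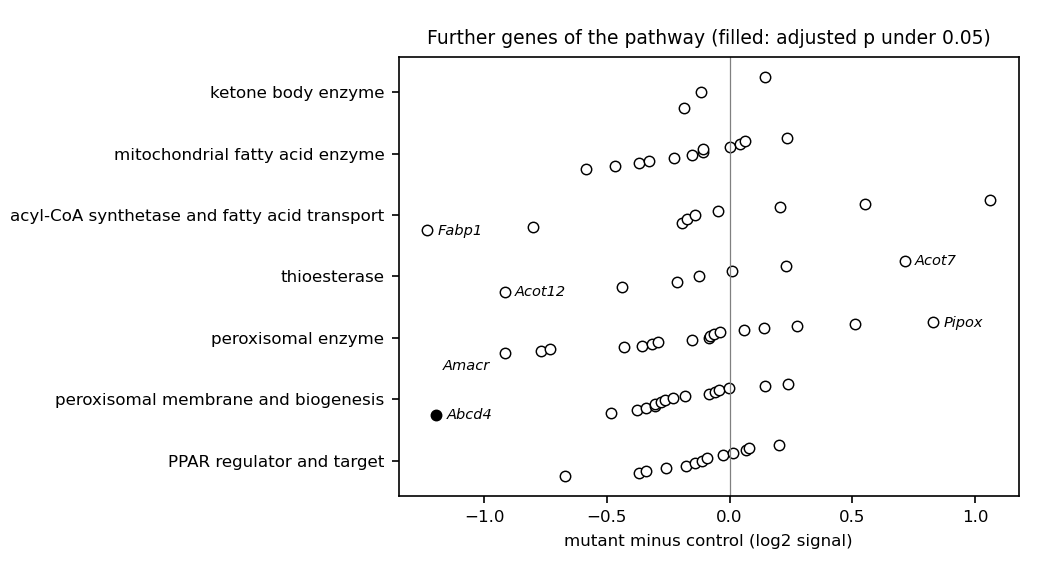
Mutant minus control in log2 signal for the 77 further genes of the pathway, 1 point per gene, by role. The filled point is Abcd4 at -1.20, the gene with an adjusted p under 0.05, and open points did not pass.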

How the data were processed

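Per the labels, 1 array per animal was hybridised. The values the authors deposited are signals of probe sets, taken as log2 from their range of 1.80 to 14.5. How they were made (background, summary, normalisation) is not stated in the labels. Values were used as deposited. After 64 control probe sets were left out, 34945 of 45037 had 1 symbol in the platform annotation, 932 several and 9160 none listed, leaving 18193 genes. All 38 members matched RefSeq by Entrez identifier.

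Groups were compared with limma 3.58.1 (lmFit, eBayes; R 4.3.3), two-sided, group as the only term, Benjamini-Hochberg over all genes, called at adjusted p under 0.05. The fit was tested on simulated data. The number of arrays limits the precision. Members and lists were chosen with earlier results of these data known. Values per array are given by rule for the 14 members with the smallest p and for 10 named ones; of the further list, the 8 genes with the smallest p are named. Acaa1a per array, Plin2, Cyp4a14, Acot12, Esrra and Rxra were chosen after their values were seen. The 16 alternatives appear in the closing section. Promoter windows were searched in Python 3.11.15 and aligned with Biopython 1.88.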

Additional observations from a re-analysis of the deposited data

How the results depend on the processing

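Across 16 alternatives, 29 of 38 members kept their direction in all, and 9 reversed in at least 1. Adjusted p at the reversals (limma) ran from 0.721 to 0.997, and the cause was not tested. With 1 array left out, differences ran from -0.377 to 0.0116 for Cpt1a, -0.185 to 0.0028 for Decr1, -0.282 to 0.064 for Hacl1, -0.178 to 0.0048 for Hadha and -0.216 to 0.074 for Slc25a20, the high value in each without mutant 3. They ran from -0.138 to 0.016 for Hadhb and -0.0721 to 0.046 for Pex11a, the high value without mutant 1, and from -0.0060 (without control 3) to 0.140 for Eci2. With the mean of probe sets they were -0.010 for Acot2, 0.16 for Cpt1a, 0.13 for Hadhb and 0.010 for Pex11a. Quantile normalisation gave 0.017 for Hadhb and 0.0014 for Pex11a, array weights 0.0041 for Hadhb. Eci2 was -0.017 without control 3 and mutant 2.

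The number of members called was 0 under every alternative but the Y-linked covariate, which gave 2, Angptl4 and Hsd17b4. The peroxisomal median moved to -0.27 with the mean of probe sets, the 1 alternative that moved it by more than the spread between replicates. With 1 array left out it ran from -0.54 to -0.35, the mitochondrial median from -0.23 to -0.07 and that of all members from -0.28 to -0.12. Of the 77 further genes, 1 was called in the reported fit, 0 with the floor at the 20th percentile, 0 with the mean of probe sets, 2 with trend and robust fitting, 2 with array weights, 4 with the Y-linked covariate, 0 without control 3 and mutant 2, and 0 to 1 with 1 array left out.

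Over all genes, 96 calls became 11 with the floor, 150 with array weights, 196 with the Y-linked covariate, 4 without control 3 and mutant 2, and 22 to 96 with 1 array left out. Hnf4a was lost with the floor (-2.56, adjusted p = 0.0615), without control 3 and mutant 2 (-2.47, adjusted p = 0.205) and without control 2 (adjusted p = 0.0506), and ran from -2.89 to -2.39 with 1 array left out. The replicate block gave 62 genes over all genes and 0 members. The sample titles number the animals but name no pairing. Correlations of the deviations of same-numbered animals were 0.073, 0.068 and -0.018, and 2 of 3 controls and 1 of 3 mutants correlated best with their own number. These values cannot settle whether a pairing exists.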
